A study of Mus musculus with 30 samples.

Results

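Follicular helper T cells (TFH) sorted as CXCR5hi PD1+ were compared with type 2 helper T cells (TH2) by whole-transcript RNA-seq in 4 of the 30 mouse libraries of the study. The members were chosen by assay and label. They are the 2 RNA-seq libraries of TFH cells (CD4+CD45.2+CXCR5hi PD1+) from OTII Tg mice and the 2 RNA-seq libraries of TH2 cells (CD4+hCD2+) from IL-4BacTg mice. All came from spleens of C57BL/6 mice aged 8 weeks, carried no deletion by their labels, and were built with the NEB Next Ultra kit from 10 ng of total RNA. The 2 naive CD4 libraries of wild type mice, sorted by surface markers, were fitted beside them. A single RNA-seq library of TH2 cells and a single one of TFH2 cells, both of IL-4BacTg x OTII mice, were left out. OTII mice carry a T cell receptor transgene specific for a peptide of ovalbumin, and the sources used here name neither an immunization nor the cells that express the hCD2 marker. The labels do not say whether libraries of a group came from separate mice, so p-values measure only the spread between libraries, which may be technical.

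TFH cells stand at the B cell follicle and germinal centre. Bcl6 directs their fate, CXCR5 draws them to the follicle, and their IL-21, CD40 ligand and IL-4 drive B cell selection and class switching. TH2 cells carry out type 2 responses in tissues under Gata3 and release IL-4, IL-5 and IL-13, which act on eosinophils, epithelium and macrophages. Blimp-1, encoded by Prdm1, and Bcl6 repress each other and hold the follicular and effector programmes apart. Both cell types can make IL-4, from one locus shared with Il5 and Il13.

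The deposited counts are per transcript, and each gene is given by its transcript with the highest total. A level is in counts per M counts of these chosen transcripts (CPM, M being 10 to the power 6), without length scaling, so levels were compared between libraries and not between genes. Both libraries of a group are given in order, replicate 1 and then 2. A log2 ratio is TFH over TH2 with its standard error from edgeR's quasi-likelihood fit, and a call is a Benjamini-Hochberg adjusted p under 0.05 over 15797 genes tested. The TFH libraries held 82.7 and 57.6 M transcript counts, the TH2 libraries 63.3 and 71.9 M, and the naive libraries 96.0 and 107.4 M. Where a group has no count, the fold is a bound with 3 counts put in each of its libraries, and where it has 1 to 3 counts the ratio of levels has a 95% interval. Bounds and intervals cover counting error only.

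Most defining markers lay on the side of their labelled cell type, and other differences ran alongside them. Bcl6, Cxcr5, Pdcd1 and Il21 were higher in TFH libraries, and Gata3, Il5 and Il13 in TH2 libraries. Icos was lower in TFH libraries, and the direction of Il4 depended on the transcript counted, as given below. Cd4 stood at 1441 and 1421 CPM in TFH and 523 and 506 CPM in TH2 libraries, and Cd3e, a chain of the T cell receptor complex, at 661 and 636 and 369 and 413 CPM. The gate genes followed the sort, since Cxcr5 and Pdcd1 were high in TFH libraries only, which the gate itself sets. Donor sex followed cell type. Ddx3y, a Y-linked helicase, stood at 81.3 and 84.0 CPM in TFH libraries, with 1 count in both TH2 libraries together, while Xist, the X inactivation RNA, stood at 0.327 and 0.305 CPM in TFH and 1231 and 1041 CPM in TH2 libraries. Kdm5d, Eif2s3y and Uty, also Y-linked, stood at 43.5 and 45.9, 57.3 and 54.1 and 14.7 and 14.5 CPM in TFH libraries and had no count or under 1 CPM in TH2 libraries. Sex, genotype and sort therefore cannot be told apart from cell type, and in bulk RNA fewer cells of a type and less RNA per cell cannot be told apart either.

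T cell receptor segments went against the genotype labels. OTII is named only for the TFH libraries, yet the same segments led in both groups. Trav14-3 took 51.1 and 48.2% of Trav counts in TFH libraries, 50.5 and 51.9% in TH2 libraries and 5.98 and 5.60% in naive libraries. The Trav14 family, whose near-identical copies can share reads, took 96.5 and 96.1% in TFH and 99.3 and 99.0% in TH2 libraries, against 18.0 and 16.8% in naive ones. Trbv12-2 took 77.3 and 78.6% of Trbv counts in TFH, 71.1 and 69.9% in TH2 and 7.90 and 7.93% in naive libraries. Trbv26 was the next of these, at 6.62 and 6.88% in TFH and 18.2 and 18.6% in TH2 libraries. The 95% Wilson intervals of these segment shares, which cover counting error only, were at most 1.0 percentage points to either side. The libraries labelled TH2 of IL-4BacTg mice and the TFH libraries thus shared their leading Trav and Trbv segments, and whether the TH2 mice also carried the OTII transgene cannot be told from the labels. Trac, the constant segment of the alpha chain, stood at 6123 and 5912 CPM in TFH, 16380 and 11000 CPM in TH2 and 386 and 375 CPM in naive libraries.

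**Figure D1:**
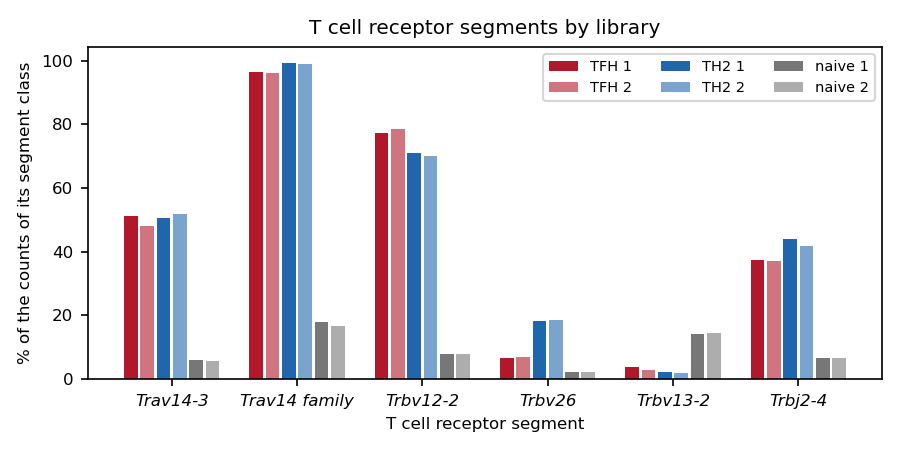
Share of each T cell receptor segment among the counts of its class (Trav, Trbv or Trbj), in percent, 1 bar per library (TFH CXCR5hi red, TH2 blue, naive grey, n = 2 each). Trav14-3 and Trbv12-2 lead in the TFH and the TH2 libraries alike, and the naive libraries stay far below them.

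Markers of other cells were counted in both groups and did not all lie on one side. Summed over 16 B cell genes, levels were 302 and 293 CPM in TFH, 188 and 176 CPM in TH2 and 377 and 393 CPM in naive libraries. Ighm, the IgM heavy chain, was the most abundant of them in TFH and TH2 libraries. It made up 261 and 256 CPM of the TFH sums and 162 and 148 CPM of the TH2 sums. Igkc, the kappa light chain, stood at 6.5 and 5.89 CPM in TFH libraries with 1 count in TH2 libraries. Ms4a1, which encodes the B cell marker CD20, had 0 counts in TH2 libraries and was too low to test. Plasma cell genes summed to 12.7 and 12.3 CPM in TFH and 1.56 and 1.44 CPM in TH2 libraries, macrophage and dendritic genes to 49.26 and 45.19 against 32.1 and 31.3 CPM, and erythroid and platelet genes to 24.3 and 24.4 against 46.8 and 43.2 CPM. The 13 CD8 T and NK cell genes summed to 72.3 and 66.6 CPM in TFH and 14.0 and 12.5 CPM in TH2 libraries. Of them, 7 were not tested, and of the 6 tested 3 were higher and 1 lower in TFH libraries at 2-fold or more. Klrb1c (NK1.1) made up most of the TFH sum, at 51.1 and 45.9 CPM, with 0 counts in TH2 libraries. Cpa3, a mast cell and basophil protease, stood at 60.2 and 46.6 CPM in TH2 libraries against 0.109 and 0.0508 CPM in TFH libraries. Of the 17 granulocyte, basophil and mast cell genes, 8 had 0 counts in all 4 libraries. The part of these transcripts in the results below was not tested.

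TFH CXCR5hi and TH2 cells differed across most of the transcriptome. Of 15797 genes tested, 10353 were called (65.5%), 5172 higher and 5181 lower in TFH cells, with a median log2 ratio of -0.027 over all genes. Counting only calls of 2-fold or more, 2263 genes were higher (14.3%) and 2597 lower (16.4%) in TFH cells. The TFH and TH2 libraries did not overlap in 12800 genes (81.0%). With 2 libraries a group, many genes would not overlap even without a difference. Replicates lay close together, with over 2-fold differences between them in 0.90% of genes in TFH and 0.63% in TH2 libraries, so small ratios pass, and gene lists below are counted at 2-fold or more.

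**Figure D2:**
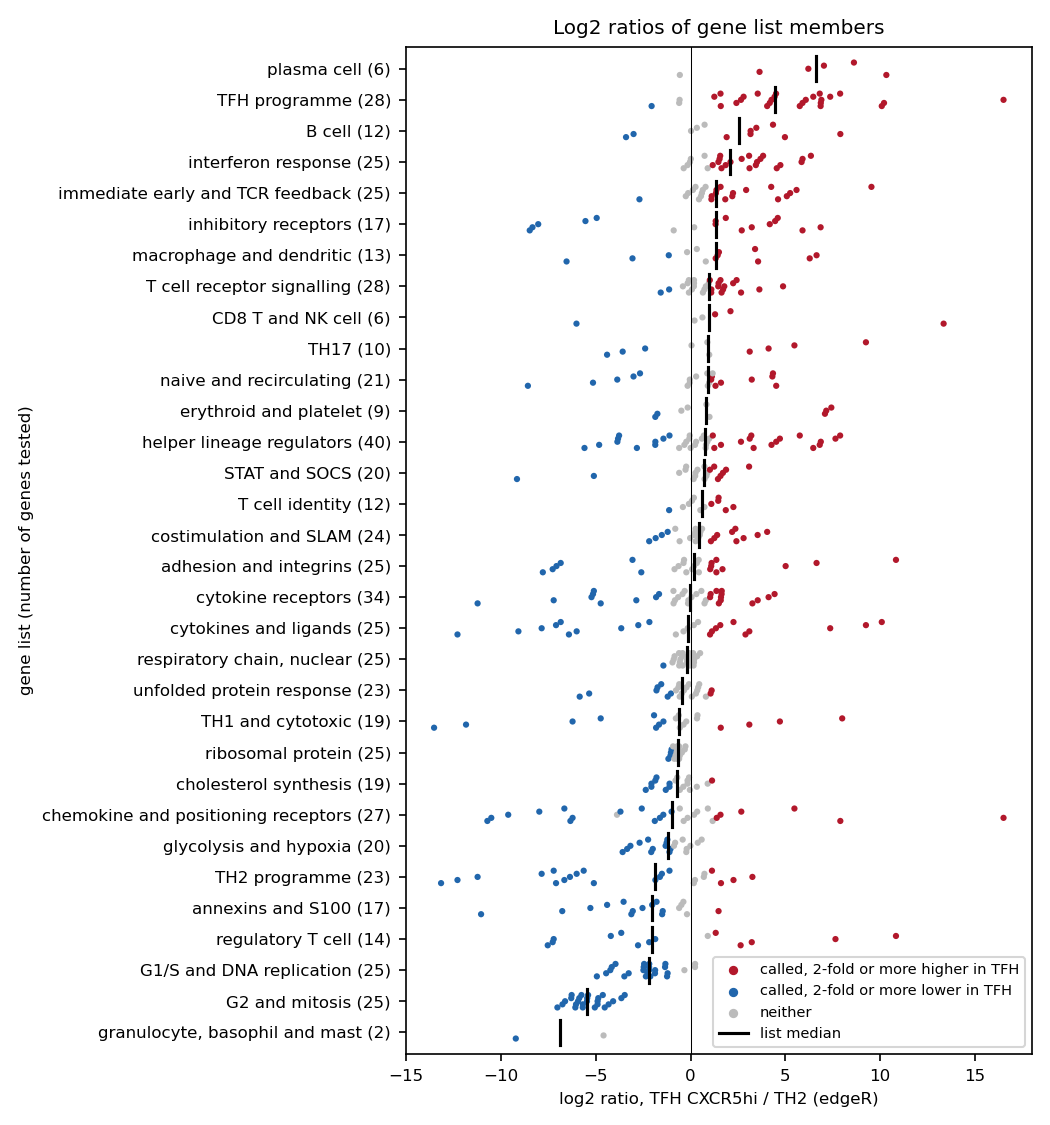
Log2 ratio (TFH CXCR5hi over TH2, edgeR) of every tested member of each gene list, 1 point per gene, with red for calls 2-fold or more higher in TFH, blue for 2-fold or more lower and grey for the rest. Black bars are list medians. Ratios of genes absent from one group depend on the prior count of the fit. All tested genes of the mitosis list lie left of 0 and 25 of 28 of the TFH list lie right of it.

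The TFH programme lay almost wholly on the side of TFH cells. Of 28 genes tested, 25 were higher at 2-fold or more and 1 lower, with a median log2 ratio of 4.47. Cxcr5 (chr9:44511787-44561877 in GRCm38, GENCODE M21) stood at 438 and 430.0 CPM in TFH libraries. Neither TH2 library held a count, so the level was at least 3367-fold higher in TFH cells. Bcl6, the repressor that specifies the lineage (chr16:23965052-23988852), stood at 397 and 389.9 CPM in TFH and 6.90 and 7.59 CPM in TH2 libraries (log2 ratio 5.76 ± 0.09, edgeR adjusted p 3.24e-11). Naive cells lay between, at 28.3 and 28.0 CPM. Il21, whose product acts on germinal centre B cells (chr3:37222759-37232636), stood at 189 and 192 CPM in TFH and 0.230 and 0.12 CPM in TH2 libraries (10.09 ± 0.15, edgeR adjusted p 2.94e-11). Pdcd1, the inhibitory receptor PD-1 of the gate, stood at 371 and 367 against 6.21 and 6.11 CPM (5.90 ± 0.09, edgeR adjusted p 2.94e-11). For each of these genes both TFH libraries lay far above both TH2 libraries, and the TFH libraries lay close to each other.

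Nuclear factors of the follicular programme were split by group in the same way. Tox2, an HMG-box factor that promotes TFH development, stood at 518 and 496 CPM in TFH and 1.84 and 2.40 CPM in TH2 libraries (7.89 ± 0.17, edgeR adjusted p 1.44e-10), and its relative Tox at 405 and 385 against 3.36 and 3.39 CPM (6.87 ± 0.10, edgeR adjusted p 2.94e-11). Cebpa, better known from myeloid cells, stood at 207 and 208 against 0.276 and 0.0799 CPM (10.20 ± 0.23, edgeR adjusted p 3.14e-10), and naive libraries held 0.0634 and 0.336 CPM. Maf, which drives Il21 and Il4, was present in both groups, at 1103 and 1065 against 170.4 and 173 CPM (2.66 ± 0.10, edgeR adjusted p 6.46e-09), above the 11.9 and 9.10 CPM of naive cells. Ascl2, a helix-loop-helix factor upstream of Cxcr5, was low but on the same side, at 5.63 and 5.03 CPM in TFH libraries and 2 counts in TH2 libraries, a ratio of 126 (counting interval 34.5 to 1040). Icos, the costimulator that TFH cells need, went the other way by a small step, at 166 and 164 CPM in TFH and 274 and 219 CPM in TH2 libraries (-0.58 ± 0.10, edgeR adjusted p 0.000399), and both groups exceeded the 24.7 and 24.4 CPM of naive cells.

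Helper lineage regulators lay on both sides, with 16 of 40 higher and 10 lower in TFH cells at 2-fold or more, median 0.74. Tcf7, which encodes TCF-1 and supports Bcl6, stood at 2382 and 2303 CPM in TFH, 99.5 and 105 CPM in TH2 and 1485 and 1516 CPM in naive libraries (4.52 ± 0.09, edgeR adjusted p 1.05e-10). Id3, an inhibitor of E proteins, stood at 111 and 108 against 5.20 and 6.11 CPM (4.27 ± 0.09, edgeR adjusted p 1.28e-10), while its relative Id2, linked to effector cells, stood at 23.5 and 21.2 against 319.6 and 294 CPM (-3.77 ± 0.09, edgeR adjusted p 1.78e-10). The Id3 and Id2 ratios thus had opposite signs. Prdm1, the Bcl6 antagonist, stood at 0.690 and 0.406 CPM in TFH and 25.4 and 30.1 CPM in TH2 libraries (-5.60 ± 0.20, edgeR adjusted p 3.22e-09), with 5.61 and 5.46 CPM in naive ones. Ikzf2 (Helios) stood at 309 and 299.6 against 1.52 and 1.52 CPM (7.64 ± 0.12, edgeR adjusted p 3.24e-11).

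The TH2 programme was not simply the mirror image. Of 23 genes tested, 15 were lower in TFH cells at 2-fold or more and 4 were higher, median -1.86. Gata3, the master factor (chr2:9857078-9890034), stood at 198 and 182 CPM in TFH and 616 and 765 CPM in TH2 libraries (-1.86 ± 0.11, edgeR adjusted p 1.23e-07). TFH cells held more of it than the 86.0 and 81.8 CPM of naive cells. Il13 stood at 0.181 and 0.457 CPM in TFH and 72.1 and 68.3 CPM in TH2 libraries (-7.86 ± 0.39, edgeR adjusted p 6.48e-06). Il5, the eosinophil cytokine, was low in TH2 libraries, at 4.00 and 3.08 CPM, and had 1 count in TFH libraries, a ratio of 166 (counting interval 29.3 to 6580). Il10, which restrains inflammation, stood at 1.49 and 1.47 against 105 and 87.2 CPM (-6.01 ± 0.14, edgeR adjusted p 1.87e-10). Il1rl1, the IL-33 receptor ST2 of tissue TH2 cells, stood at 0.145 and 0.102 against 333 and 304 CPM (-11.24 ± 0.16, edgeR adjusted p 2.94e-11).

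Pparg and Il24 had no count in either TFH library. Pparg, a nuclear receptor that supports IL-33 responses in TH2 cells, stood at 46.5 and 39.1 CPM in TH2 libraries (at least 328-fold lower in TFH cells), and Il24, a cytokine of the IL-10 family, at 26.0 and 20.9 CPM (at least 179.7-fold lower). Il4ra, the receptor chain for IL-4 and IL-13, stood at 37.4 and 39.1 CPM in TFH, 1258 and 1375 CPM in TH2 and 355 and 333 CPM in naive libraries (-5.11 ± 0.10, edgeR adjusted p 7.5e-11), so TFH cells lay below the naive level. Members outside the naming rule, picked after their values were seen, were Ecm1, an egress factor of TH2 cells, at 10.3 and 9.54 against 710.5 and 934 CPM, Epas1 (HIF-2 alpha) at 9.88 and 9.54 against 440.0 and 531 CPM, and the skin homing receptor Ccr8 at 2.14 and 1.47 against 191 and 186 CPM. The members higher in TFH cells beside Il4 were Il17rb, a receptor for IL-25 (83.2 and 79.2 against 8.14 and 8.79 CPM), Areg, an epidermal growth factor family ligand (12.3 and 11.9 against 2.58 and 2.48 CPM), and Il9r (58.2 and 57.0 against 19.0 and 19.0 CPM). All of these were called at 2-fold or more.

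Il4 itself turned on the transcript counted. The chosen transcript, ENSMUST00000000889, begins with the exon at chr11:53618475-53618669 on the minus strand (GRCm38) and stood at 50.6 and 51.5 CPM in TFH and 22.9 and 23.9 CPM in TH2 libraries (1.13 ± 0.10, edgeR adjusted p 3.5e-06). ENSMUST00000140684, whose first exon is at chr11:53618170-53618352, stood at 29.6 and 28.6 CPM in TFH and 21.1 and 22.0 CPM in TH2 libraries. The other 2 annotated transcripts begin further downstream, at chr11:53617081-53617224 and chr11:53617081-53617338, and lay the other way. ENSMUST00000127858 stood at 22.1 and 20.8 CPM in TFH and 32.4 and 32.4 CPM in TH2 libraries, and ENSMUST00000150568 at 29.8 and 26.6 CPM in TFH and 41.8 and 41.7 CPM in TH2 libraries. In these counts, TFH libraries held 2.18 and 1.35 times the TH2 level for the transcripts with an upstream first exon. TH2 libraries held 1.51 and 1.48 times the TFH level for those with the downstream first exon. A read may have been counted on several of these transcripts, so the counts may not be separate levels of each transcript. Summed over transcripts, where a read may enter more than once, the Il4 log2 ratio was 0.11 and did not pass (edgeR adjusted p 0.233). The TH2 mice carry a transgene named for IL-4, and its part in these counts was not tested. Naive libraries held at most 7 counts of any of the 4 transcripts.

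**Figure D3:**
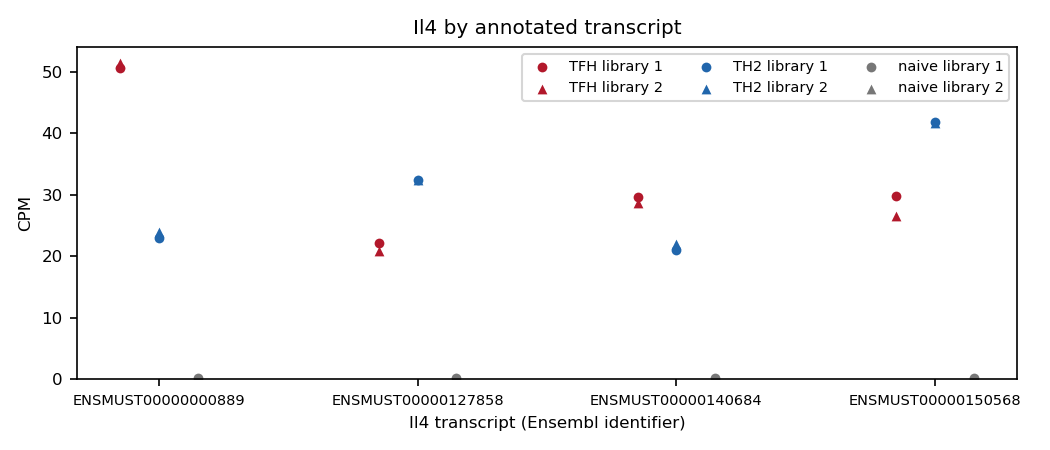
Level of the 4 annotated Il4 transcripts in CPM, 1 point per library (TFH CXCR5hi red, TH2 blue, naive grey; circles replicate 1, triangles replicate 2). TFH libraries lie above TH2 libraries for ENSMUST00000000889 and ENSMUST00000140684 and below them for the other 2 transcripts. A read may have been counted on several of the transcripts.

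Other helper cytokines and ligands were divided between the groups, with 10 of 25 tested genes higher and 10 lower in TFH cells (median -0.16). Tnfsf8, the CD30 ligand, stood at 317 and 313 CPM in TFH and 49.3 and 41.6 CPM in TH2 libraries (2.79 ± 0.09, edgeR adjusted p 1.32e-09). Tnfsf11, which encodes RANKL, stood at 164 and 162 against 14.2 and 13.8 CPM (3.54 ± 0.08, edgeR adjusted p 2e-10). Il22, an epithelial cytokine better known from TH17 cells, stood at 3.23 and 2.39 CPM in TFH libraries with 0 counts in TH2 libraries, at least 21.8-fold higher. Csf2 (GM-CSF) showed the opposite pattern, with 2.53 and 2.52 CPM in TH2 libraries and 0 counts in TFH libraries, at least 19.3-fold lower. Angptl2 and Cd40lg were picked after their values were seen. Angptl2, a secreted protein made by TFH cells, stood at 395 and 401 against 2.02 and 2.75 CPM, and Cd40lg, the signal that licenses B cells, at 121 and 121 against 52.3 and 49.4 CPM (1.25 ± 0.08, edgeR adjusted p 1.78e-07).

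Master genes of the remaining helper lineages were low in both groups. Tbx21, the TH1 factor T-bet, stood at 6.5 and 7.11 CPM in TFH and 0.138 and 0.359 CPM in TH2 libraries (4.71 ± 0.34, edgeR adjusted p 7.84e-07), and Ifng at 0.399 and 0.406 CPM in TFH libraries with 2 counts in TH2 libraries, a ratio of 9.41 (counting interval 2.27 to 83.3). The Ifng call was lost without TH2 replicate 2 (log2 ratio 2.06, edgeR adjusted p 0.0645). Foxp3, the regulatory T cell factor, stood at 3.78 and 3.15 CPM in TFH, 13.1 and 12.5 CPM in TH2 and 57.9 and 61.2 CPM in naive libraries (-1.87 ± 0.12, edgeR adjusted p 2.47e-07). Both sorted groups therefore lay below the naive level of Foxp3. TH17 genes counted 4 higher and 3 lower of 10, and Il1r1, the IL-1 receptor, stood at 108 and 113 against 7.26 and 5.55 CPM (4.11 ± 0.11, edgeR adjusted p 5.16e-10). Ccr6, a TH17 homing receptor, stood at 1.27 and 1.01 CPM in TFH libraries with 1 count in TH2 libraries.

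**Figure D4:**
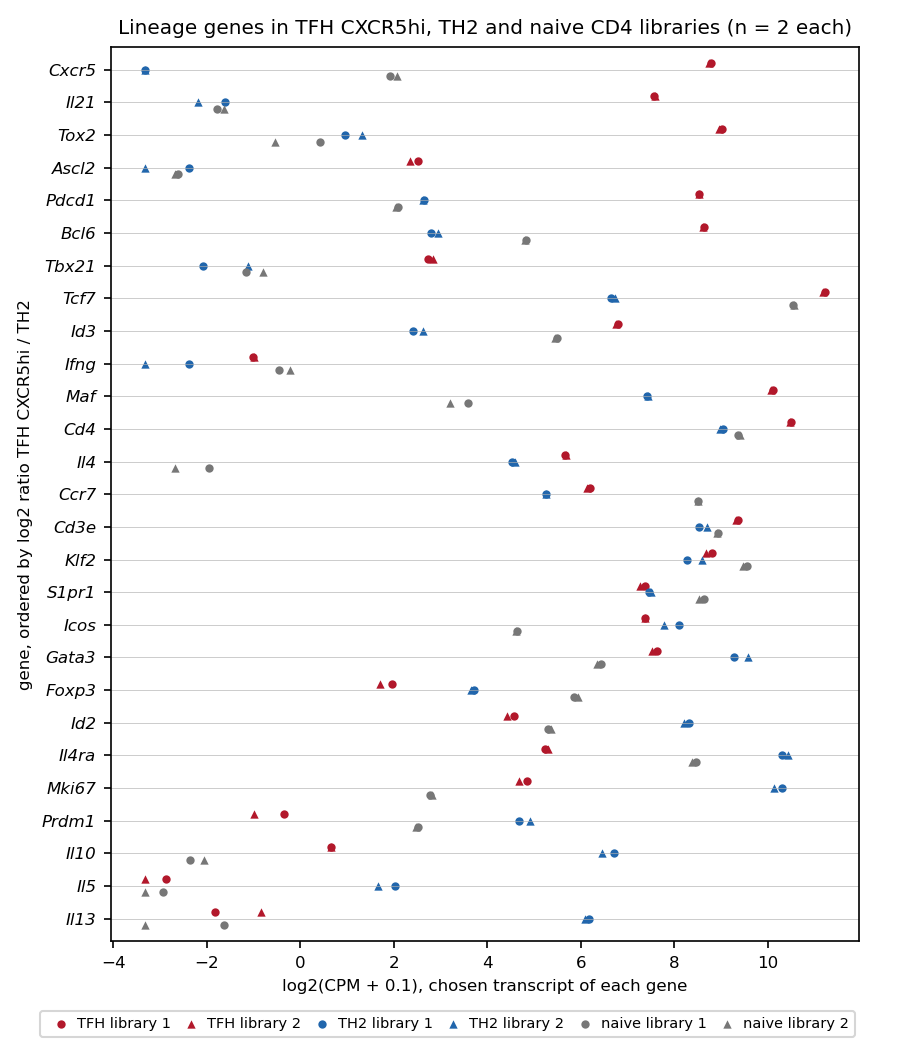
Levels of lineage genes, 1 point per library, as log2(CPM + 0.1) of the chosen transcript (TFH CXCR5hi red, TH2 blue, naive grey; circles replicate 1, triangles replicate 2). Genes are ordered by log2 ratio, and levels are to be read along a row, not between genes. Within their rows, TFH libraries lie right of TH2 libraries for Cxcr5, Il21, Tox2, Pdcd1 and Bcl6. They lie left of TH2 libraries for Il13, Il5, Il10 and Prdm1. For Bcl6 and Prdm1 the naive libraries lie between.

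Gzmb and Gzma were far higher in TH2 libraries. Gzmb, the serine protease of cytotoxic granules (chr14:56258838-56262260), stood at 0.181 and 0.254 CPM in TFH and 2792 and 2349 CPM in TH2 libraries (-13.54 ± 0.23, edgeR adjusted p 5.76e-11). Gzma (chr13:113093825-113100981) stood at 0.399 and 0.152 against 1259 and 959.9 CPM (-11.85 ± 0.27, edgeR adjusted p 8.06e-10). Naive libraries held under 1 CPM of either. Prf1, the pore protein perforin, did not accompany them, at 0.290 and 0.254 CPM in TFH and 0.368 and 0.479 CPM in TH2 libraries (edgeR adjusted p 0.265). Cxcr6, a tissue homing receptor of effector cells, stood at 5.16 and 5.69 against 445 and 365 CPM (-6.23 ± 0.13, edgeR adjusted p 1.09e-10), and Il18rap, a chain of the IL-18 receptor, at 1.6 and 1.57 against 45.24 and 40.0 CPM (-4.74 ± 0.15, edgeR adjusted p 1.54e-09). Over the TH1 and cytotoxic list, 8 of 19 tested genes were lower in TFH cells and 4 higher, median -0.63.

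Of 27 chemokine and positioning receptors tested, 13 were lower and 6 higher in TFH cells at 2-fold or more and 8 neither, with a median of -1.0 (-0.57 when genes without counts on one side take their bound). Ccr2, which brings effector cells to inflamed tissue, stood at 0.181 and 0.406 CPM in TFH and 462 and 359.9 CPM in TH2 libraries (-10.52 ± 0.24, edgeR adjusted p 7.45e-10). Ltb4r1, a leukotriene B4 receptor, had 2 counts in TFH libraries and 74.8 and 83.9 CPM in TH2 libraries, a ratio of 1880 (counting interval 521 to 15500). Ccr1 likewise had 2 counts against 41.1 and 33.0 CPM, a ratio of 868 (counting interval 240.0 to 7170). Of the receptors higher in TFH cells, Gpr183 (EBI2), which reads oxysterols at the border of the follicle, stood at 290.4 and 285 against 47.2 and 43.0 CPM and S1pr2, which confines cells to the germinal centre, at 29.8 and 28.9 against 9.79 and 9.86 CPM (1.58 ± 0.11, edgeR adjusted p 5.85e-07). Both were picked after their values were seen.

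The recirculation programme did not part the groups as a block. S1pr1, the receptor for exit into blood, stood at 164 and 154 CPM in TFH and 176 and 179.6 CPM in TH2 libraries (-0.16 ± 0.07, edgeR adjusted p 0.0831). It passed without either TH2 library (edgeR adjusted p 0.0106 and 0.034). Klf2, which drives it, stood at 443 and 406 against 307 and 387 CPM (0.29 ± 0.11, edgeR adjusted p 0.0382), a call lost without TH2 replicate 1 and without either TFH library (edgeR adjusted p 0.057, 0.276 and 0.0564) and in a fit of only the 4 libraries (0.0664). Ccr7, the lymph node homing receptor, stood at 73.7 and 69.5 CPM in TFH, 38.3 and 38.1 CPM in TH2 and 364 and 364 CPM in naive libraries (0.91 ± 0.07, edgeR adjusted p 1.59e-06). Other members of the list moved far. Il7r, the survival receptor of resting T cells, stood at 11.5 and 11.7 CPM in TFH, 457 and 369.7 CPM in TH2 and 448 and 425 CPM in naive libraries (-5.15 ± 0.13, edgeR adjusted p 2.3e-10), and Igfbp4 at 0.908 and 0.558, 264 and 324 and 531 and 537 CPM (-8.59 ± 0.18, edgeR adjusted p 1.09e-10). TFH cells lay far below both other groups in these genes, and TH2 cells lay near the naive level for Il7r and below it for Igfbp4. Actn1, an actin crosslinker, had the reverse order, at 229 and 217 CPM in TFH, 10.2 and 12.1 CPM in TH2 and 671 and 676 CPM in naive libraries (4.31 ± 0.10, edgeR adjusted p 1.84e-10). In all, 8 of 21 genes were higher and 5 lower, median 0.91.

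Adhesion genes lay on both sides, with 9 of 25 higher and 6 lower in TFH cells at 2-fold or more and a median of 0.18, while annexin, S100 and related genes were mostly lower. Itgb3, the beta 3 integrin that binds vitronectin, stood at 5.12 and 4.37 CPM in TFH, 1029 and 1103 CPM in TH2 and 158 and 152 CPM in naive libraries (-7.80 ± 0.12, edgeR adjusted p 3.12e-11). Itgae (CD103), which binds E-cadherin, stood at 0.218 and 0.102 against 25.8 and 28.0 CPM (-7.28 ± 0.23, edgeR adjusted p 1.22e-09), and Itga2 had 2 counts in TFH libraries against 6.53 and 6.11 CPM. Itgb8, which activates latent TGF-beta, was on the other side, at 8.93 and 8.02 CPM in TFH libraries with 0 counts in TH2 libraries, at least 65.8-fold higher. Of 17 annexin, S100 and related genes tested, 12 were lower and 1 higher, median -2.03. Anxa1, a brake on inflammation, had 1 count in TFH libraries and 59.9 and 50.2 CPM in TH2 libraries, a ratio of 2580 (counting interval 463 to 102000). Vim, the intermediate filament vimentin, stood at 53.5 and 55.2 against 2028 and 2223 CPM (-5.29 ± 0.10, edgeR adjusted p 7.25e-11), the galectin gene Lgals1 at 72.7 and 67.4 against 1588 and 1387 CPM (-4.41 ± 0.11, edgeR adjusted p 2.35e-10) and Lgals3 at 0.508 and 0.305 against 47.5 and 45.8 CPM (-6.77 ± 0.18, edgeR adjusted p 4.24e-10).

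Of 17 inhibitory receptors tested, 10 were higher and 5 lower in TFH cells, median 1.32. Btla, which pairs with HVEM on B cells, stood at 298 and 290.5 CPM in TFH, 3.04 and 2.08 CPM in TH2 and 86.0 and 84.4 CPM in naive libraries (6.86 ± 0.12, edgeR adjusted p 7.25e-11). Lag3 and Tigit, 2 receptors for MHC class II and nectin-like ligands picked after their values were seen, stood at 246 and 243 against 10.7 and 11.5 CPM and 356 and 347 against 36.2 and 38.9 CPM. Lilr4b, a leukocyte immunoglobulin-like receptor, was on the TH2 side. It stood at 1.81 and 1.37 against 586 and 473 CPM (-8.34 ± 0.17, edgeR adjusted p 1.05e-10) and its close paralog Lilrb4a at 1.63 and 1.52 against 468 and 369.7 CPM (-8.04 ± 0.17, edgeR adjusted p 1.18e-10). Reads of these 2 near-identical genes may be split between them. Entpd1 (CD39), which breaks down extracellular ATP, stood at 0.508 and 0.609 against 210.5 and 189 CPM (-8.49 ± 0.14, edgeR adjusted p 3.88e-11). Naive libraries held under 2 CPM of each.

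Of 24 costimulation and SLAM genes, 9 were higher and 4 lower in TFH cells at 2-fold or more, median 0.44. Slamf6, a SLAM family receptor, stood at 288 and 291 against 18.7 and 16.6 CPM (4.04 ± 0.09, edgeR adjusted p 1.06e-10). Sh2d1a, which encodes the adaptor SAP, stood at 125 and 120.1 against 25.3 and 20.8 CPM (2.42 ± 0.09, edgeR adjusted p 5.65e-09). Genes tied to regulatory T cells were spread over both sides, with 5 of 14 higher and 8 lower, median -2.03. Lrrc32 (GARP), which docks latent TGF-beta, stood at 0.472 and 0.609 CPM in TFH and 94.1 and 105 CPM in TH2 libraries (-7.54 ± 0.14, edgeR adjusted p 7.25e-11).

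Cytokine receptors lay on both sides as a list, with large ratios in single members. Il2ra (CD25), the high-affinity chain for IL-2, stood at 2.07 and 3.2 CPM in TFH, 392 and 374 CPM in TH2 and 26.0 and 25.8 CPM in naive libraries (-7.22 ± 0.14, edgeR adjusted p 7.25e-11). Il1r2, the IL-1 decoy receptor, stood at 0.653 and 0.558 against 25.2 and 21.1 CPM (-5.23 ± 0.20, edgeR adjusted p 1.82e-08). The IL-6 receptor chains Il6st and Il6ra, picked after their values were seen, lay the other way, at 534 and 530.3 against 24.7 and 24.6 CPM (4.43 ± 0.08, edgeR adjusted p 7.25e-11) and 223 and 214 against 17.4 and 20.0 CPM (3.54 ± 0.09, edgeR adjusted p 2.8e-10). Il21r stood at similar levels, at 147 and 143 against 172 and 188 CPM (-0.31 ± 0.07, edgeR adjusted p 0.00357). Counts over the list were near even, 12 of 34 higher and 9 lower, median -0.03, close to that of all genes.

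Cish and Socs2, feedback genes of the IL-2 activated factor STAT5, were far lower in TFH cells, while 7 of the 20 STAT and SOCS genes tested were higher and 2 lower at 2-fold or more (median 0.73). Cish (chr9:107296026-107302784), a SOCS family inhibitor induced by STAT5, stood at 15.2 and 16.4 CPM in TFH, 492 and 593 CPM in TH2 and 29.4 and 29.9 CPM in naive libraries (-5.11 ± 0.11, edgeR adjusted p 1.42e-10). Socs2 stood at 0.181 and 0.0508 against 77.0 and 73.6 CPM (-9.16 ± 0.20, edgeR adjusted p 1.34e-10). These were the only 2 members lower at 2-fold or more. Socs3, a feedback inhibitor induced by STAT3, stood at 356 and 338 against 90.4 and 99.3 CPM (1.87 ± 0.08, edgeR adjusted p 8.81e-09). The RefSeq promoter window of Cish (250 bases before to 50 after the start, chr9:107296409-107296708 on the plus strand, GRCm38.p6) is shown because it holds the STAT binding letters TTCNNNGAA on 2 adjacent stretches, in capitals.
Cish: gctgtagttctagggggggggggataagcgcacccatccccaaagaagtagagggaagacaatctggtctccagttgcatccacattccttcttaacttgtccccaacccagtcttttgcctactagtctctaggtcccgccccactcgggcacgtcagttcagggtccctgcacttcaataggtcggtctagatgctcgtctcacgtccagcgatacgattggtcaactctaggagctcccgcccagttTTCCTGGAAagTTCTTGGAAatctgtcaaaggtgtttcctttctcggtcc
These letters, read on either strand, occur in 9.55% of the 27025 genes with a promoter window and in 2 of the 15 STAT and SOCS genes with one. A match of letters is a description and not a shown binding site.

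Genes induced by antigen receptor signals were higher in TFH cells. Of 25 immediate early genes, 15 were higher and 1 lower at 2-fold or more, median 1.34. Nr4a3, an orphan nuclear receptor that reports receptor signals (chr4:48045153-48086447), stood at 405 and 399 CPM in TFH, 0.690 and 0.399 CPM in TH2 and 16.8 and 15.9 CPM in naive libraries (9.54 ± 0.14, edgeR adjusted p 2.94e-11), and Nr4a2 at 179 and 167 against 3.72 and 3.47 CPM (5.59 ± 0.10, edgeR adjusted p 7.25e-11). Egr2 and Egr3, zinc finger factors needed for TFH function, stood at 95.1 and 90.2 against 1.89 and 2.92 CPM (5.25 ± 0.14, edgeR adjusted p 3.39e-10) and 56.3 and 49.2 against 1.61 and 1.52 CPM (5.08 ± 0.14, edgeR adjusted p 5.19e-10). The exception was Myc, which encodes a transcription factor of cell growth, at 17.6 and 17.9 CPM in TFH and 109 and 122 CPM in TH2 libraries (-2.70 ± 0.08, edgeR adjusted p 1.06e-09). Fos and Jun, which tissue handling can also induce, differed less, by 0.79 ± 0.08 and 0.44 ± 0.10. For Nr4a3, Nr4a2, Egr2 and Egr3 the TFH libraries also lay above both naive libraries, whereas TH2 libraries lay below them.

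Components of the receptor pathway followed, with 14 of 28 higher and 2 lower, median 0.98. Nfatc1, the calcium-dependent factor that activates its own transcription, stood at 1320 and 1265 CPM in TFH and 87.3 and 122 CPM in TH2 libraries (3.63 ± 0.15, edgeR adjusted p 2.58e-08). Fyn, a Src family kinase that works with SAP, stood at 1235 and 1205 against 181 and 205 CPM (2.66 ± 0.09, edgeR adjusted p 2.11e-09). Txk, a Tec family kinase, stood at 27.1 and 25.9 CPM in TFH, 1.01 and 0.799 CPM in TH2 and 90.5 and 89.0 CPM in naive libraries (4.88 ± 0.13, edgeR adjusted p 3.57e-10), so that TFH cells lay between. Cblb, a ubiquitin ligase that dampens the pathway, stood at 291 and 292 against 55.3 and 53.3 CPM (2.43 ± 0.07, edgeR adjusted p 9.52e-10). Among T cell identity genes, 5 of 12 were higher and 1 lower, with Lck at 1268 and 1228 against 442 and 468 CPM (1.46 ± 0.08, edgeR adjusted p 9.42e-08), Cd5, a brake set by receptor signal strength, at 239.9 and 232 against 64.0 and 66.6 CPM (1.85 ± 0.07, edgeR adjusted p 6.5e-09) and Cd6 at 164 and 158 against 31.4 and 35.8 CPM (2.26 ± 0.09, edgeR adjusted p 4.62e-09).

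Interferon response genes were higher in TFH cells in 19 of 25 cases and lower in 0, median 2.10. Oasl2, a member of the antiviral OAS family, stood at 7.37 and 7.31 CPM in TFH, 0.138 and 0.0399 CPM in TH2 and 6.66 and 5.91 CPM in naive libraries (6.35 ± 0.32, edgeR adjusted p 4.6e-08). Ifit3, which blocks translation of viral RNA, stood at 13.4 and 12.7, 0.184 and 0.240 and 6.63 and 7.64 CPM in the same order (5.91 ± 0.22, edgeR adjusted p 4.23e-09), Rtp4 at 24.5 and 22.9, 0.414 and 0.399 and 16.5 and 16.0 CPM (5.85 ± 0.16, edgeR adjusted p 4.36e-10), and Isg15, a ubiquitin-like modifier, at 74.5 and 70.4, 2.76 and 2.67 and 12.0 and 11.5 CPM (4.74 ± 0.10, edgeR adjusted p 1.15e-10). In each of the 4, TH2 libraries were the lowest of the 3 groups. The promoter windows of Ifit3 (chr19:34583279-34583578, plus strand) and Isg15 (chr4:156200769-156201068, minus strand), the 2 most changed members with a match, are shown with the letters of the interferon response element, GAAANNGAAA or its reverse complement TTTCNNTTTC, in capitals.
Ifit3: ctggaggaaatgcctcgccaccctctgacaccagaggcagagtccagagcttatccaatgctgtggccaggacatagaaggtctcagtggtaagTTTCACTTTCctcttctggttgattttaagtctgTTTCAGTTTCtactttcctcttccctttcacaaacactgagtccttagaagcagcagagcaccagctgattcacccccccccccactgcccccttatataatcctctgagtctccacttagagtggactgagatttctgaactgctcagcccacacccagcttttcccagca
Isg15: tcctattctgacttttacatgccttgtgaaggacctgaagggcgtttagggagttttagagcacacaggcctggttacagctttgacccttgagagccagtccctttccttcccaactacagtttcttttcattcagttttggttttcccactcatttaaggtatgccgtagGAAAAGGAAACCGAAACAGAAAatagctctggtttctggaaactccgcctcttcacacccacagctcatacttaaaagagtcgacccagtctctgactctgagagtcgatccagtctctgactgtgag
The Ifit3 window holds 2 matches and the Isg15 window 3 overlapping ones. Of the 18 interferon response genes with a promoter window, 10 hold these letters (55.6%), as do 3.99% of all 27025 genes with a window. They were held by 3 of 15 STAT and SOCS genes (20.0%), 2 of 20 mitosis genes (10.0%), 0 of 20 replication genes, 1 of 19 immediate early genes, 1 of 22 genes of the TFH list and 1 of 21 of the TH2 list.

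Cell cycle genes lay on the TH2 side. All 25 tested genes of G2 and mitosis were lower in TFH cells at 2-fold or more, with log2 ratios from -7.03 to -3.48 and a median of -5.47. Their levels summed to 142 and 130 CPM in TFH, 5188 and 4789 CPM in TH2 and 81.1 and 74.7 CPM in naive libraries. Mki67, the proliferation antigen Ki-67, stood at 28.6 and 25.4 CPM in TFH, 1252 and 1125 CPM in TH2 and 6.75 and 6.91 CPM in naive libraries (-5.46 ± 0.11, edgeR adjusted p 7.5e-11). Ccnb2, a mitotic cyclin, stood at 1.12 and 0.711 against 123 and 127 CPM (-7.03 ± 0.14, edgeR adjusted p 7.25e-11). Nusap1 and Tpx2, which organize the spindle, stood at 1.23 and 1.07 against 143 and 111 CPM (-6.76 ± 0.18, edgeR adjusted p 5.48e-10) and 2.58 and 2.49 against 211 and 189.9 CPM (-6.30 ± 0.11, edgeR adjusted p 7.21e-11), and Bub1, a checkpoint kinase, at 0.653 and 0.305 against 53.6 and 46.9 CPM (-6.62 ± 0.24, edgeR adjusted p 4.35e-09). In their sum over the list and in Mki67, TFH libraries lay above the naive libraries, and both TH2 libraries far above either.

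Genes of DNA replication showed the same side with smaller ratios. Of 25, 22 were lower in TFH cells at 2-fold or more and 0 higher, median -2.19. Mcm10, a replication initiation factor, stood at 1.12 and 1.42 against 38.7 and 39.0 CPM (-4.95 ± 0.30, edgeR adjusted p 4.84e-06), Cdc6, which loads the replicative helicase, at 2.18 and 3.00 against 47.9 and 43.4 CPM (-4.16 ± 0.17, edgeR adjusted p 7.3e-09), and the nucleotide supply genes Tk1 and Rrm2 at 3.81 and 4.32 against 89.7 and 87.9 CPM (-4.46 ± 0.10, edgeR adjusted p 1.28e-10) and 9.15 and 10.5 against 177 and 192 CPM (-4.24 ± 0.09, edgeR adjusted p 1.28e-10). Promoter windows of Ccnb2 (chr9:70421505-70421804, minus strand) and Ttk, a mitotic kinase (chr9:83834439-83834738, plus strand), are shown with the cell cycle homology letters TTTGAA or their reverse complement TTCAAA in capitals, and that of Cdc6 (chr11:98907901-98908200, plus strand) with an E2F match (TTTCCCGC, TTTGGCGC, TTTCGCGC or TTTGCCGC, either strand). They have the largest ratios of their list among members with a match.
Ccnb2: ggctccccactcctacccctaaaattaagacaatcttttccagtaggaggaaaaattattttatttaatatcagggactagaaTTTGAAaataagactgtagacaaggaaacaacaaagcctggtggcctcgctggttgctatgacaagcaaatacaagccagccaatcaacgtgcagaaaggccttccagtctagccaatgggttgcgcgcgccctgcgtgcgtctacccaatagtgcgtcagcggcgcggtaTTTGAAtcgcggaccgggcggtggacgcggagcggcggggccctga
Ttk: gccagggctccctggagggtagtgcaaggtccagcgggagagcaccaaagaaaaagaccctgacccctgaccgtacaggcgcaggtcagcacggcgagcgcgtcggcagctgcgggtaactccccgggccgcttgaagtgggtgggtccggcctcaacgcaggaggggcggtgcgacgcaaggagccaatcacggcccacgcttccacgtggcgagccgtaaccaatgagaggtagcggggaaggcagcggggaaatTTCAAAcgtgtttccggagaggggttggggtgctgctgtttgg
Cdc6: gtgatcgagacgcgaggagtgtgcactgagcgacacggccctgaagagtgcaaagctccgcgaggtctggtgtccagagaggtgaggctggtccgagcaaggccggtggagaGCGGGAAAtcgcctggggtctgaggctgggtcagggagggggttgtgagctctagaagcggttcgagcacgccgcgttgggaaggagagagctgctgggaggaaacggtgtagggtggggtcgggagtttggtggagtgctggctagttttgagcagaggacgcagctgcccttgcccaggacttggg
The TTTGAA letters occur in 15 of the 20 mitosis genes with a window (75.0%) and in 20.2% of all genes, and CCAAT in 18 of 20 (90.0%) and 41.1%. CCAAT was also held by 13 of 20 replication genes (65.0%). TTTGAA was held by 7 of 21 genes of the TH2 list (33.3%) and 5 of 22 of the TFH list (22.7%). E2F letters occur in 9 of the 20 replication genes with a window (45.0%) and in 2.60% of all genes. A single mitosis gene holds E2F letters and 4 of the 20 replication genes hold TTTGAA, so in these lists TTTGAA was more common in mitosis genes and E2F letters in replication genes. The motifs and windows were chosen with the expression values known.

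Among metabolic lists, glycolysis and hypoxia genes lay mostly on the TH2 side, by smaller steps, and cholesterol synthesis genes less so. Of 20 glycolysis and hypoxia genes, 12 were lower in TFH cells at 2-fold or more and 0 higher, median -1.17. Bnip3, a mitophagy receptor induced by hypoxia, stood at 2.98 and 2.49 against 35.4 and 31.0 CPM (-3.59 ± 0.15, edgeR adjusted p 1.05e-08). Slc2a3, a glucose carrier, stood at 18.0 and 19.2 against 195 and 184 CPM (-3.35 ± 0.09, edgeR adjusted p 2.8e-10), and Slc16a3, which exports lactate, at 3.74 and 3.60 against 32.5 and 34.1 CPM (-3.18 ± 0.16, edgeR adjusted p 4.9e-08). Eno1, a glycolytic enzyme with near-identical pseudogenes, stood at 172 and 166 CPM in TFH, 1102 and 1087 CPM in TH2 and 474 and 465 CPM in naive libraries (-2.69 ± 0.08, edgeR adjusted p 7.35e-10). Of 19 cholesterol synthesis genes tested, 8 were lower and 1 higher (0 higher without TH2 replicate 1), median -0.71. Acat2, Idi1 and Lss, enzymes of sterol and isoprenoid synthesis, had log2 ratios of -2.37 ± 0.10, -2.07 ± 0.12 and -1.86 ± 0.10.

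The respiratory chain stayed closer, with 1 of 25 nuclear genes lower at 2-fold or more, Cox5a (55.7 and 53.8 against 150.3 and 146 CPM, -1.44 ± 0.07, edgeR adjusted p 3.38e-08), and a median of -0.18. That count was 2 without TFH replicate 1 and 3 without TH2 replicate 2. Cytoplasmic ribosomal protein genes were all called lower, 25 of 25, but 4 reached 2-fold, median -0.69. Of all genes tested, 65.5% were called in either direction. The 4 of 25 lie near the 16.4% of all genes that were lower at 2-fold or more. Rplp0, of the ribosomal stalk, stood at 1604 and 1533 CPM in TFH, 3343 and 3107 CPM in TH2 and 3549 and 3563 CPM in naive libraries (-1.04 ± 0.09, edgeR adjusted p 2.72e-06). For Rplp0, TH2 cells thus stood near naive levels and TFH cells below both. Without TH2 replicate 1, 1 ribosomal protein gene reached 2-fold. Ribosomal protein genes have many near-identical copies that can split their reads. Genes of the unfolded protein and amino acid stress response counted 7 lower and 2 higher of 23, median -0.47, with 1 higher without TFH replicate 1 or TH2 replicate 2. Asns, which makes asparagine, stood at 0.399 and 0.812 against 26.2 and 21.4 CPM (-5.35 ± 0.29, edgeR adjusted p 2.07e-07), and the endoplasmic reticulum chaperones Hsp90b1 and Sdf2l1 at 152 and 147 against 556 and 448 CPM (-1.75 ± 0.10, edgeR adjusted p 1.38e-07) and 16.3 and 17.5 against 53.3 and 64.4 CPM (-1.80 ± 0.11, edgeR adjusted p 1.42e-07).

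Beyond the lists, the genes with the largest ratios toward TFH cells, among those of at least 10 CPM in both libraries of the higher group, included several with little known role in T cells. Sostdc1, a secreted antagonist of BMP and Wnt signals, stood at 91.5 and 87.3 CPM in TFH libraries with 0 counts in TH2 libraries, at least 694-fold higher. Ces2c, a carboxylesterase, stood at 35.4 and 33.2 CPM with 1 count in TH2 libraries, a ratio of 1610 (counting interval 289 to 63800). The related pseudogene Ces2d-ps stood at 42.2 and 38.8 CPM, also with 1 count, and may share reads with its family. Popdc2, which binds cyclic AMP, and Gjb2 (connexin 26) stood at 19.0 and 19.6 and 10.5 and 12.1 CPM, each with 1 count in TH2 libraries. Padi4, which converts arginine to citrulline in proteins, stood at 178 and 173 against 0.460 and 0.319 CPM (8.82 ± 0.16, edgeR adjusted p 7.21e-11), and Cdk5r1, the activator of the kinase CDK5, at 87.3 and 84.0 against 0.276 and 0.20 CPM (8.48 ± 0.16, edgeR adjusted p 7.25e-11). Dtx1, a Notch target and E3 ligase linked to anergy, stood at 154 and 149.9 CPM in TFH, 0.460 and 0.439 CPM in TH2 and 299.8 and 293 CPM in naive libraries (8.39 ± 0.13, edgeR adjusted p 3.12e-11). Of these 8, Dtx1 was the one that naive cells held at a higher level than TFH cells.

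On the TH2 side the same rule gave genes of varied roles. Aqp9, a channel for glycerol and water (chr9:71110659-71168682), stood at 63.7 and 61.8 CPM in TH2 libraries with 0 counts in TFH libraries, at least 480.4-fold lower. Cysltr1, the receptor for cysteinyl leukotrienes, stood at 143 and 107 CPM with 1 count in TFH libraries, a ratio of 5830 (counting interval 1050 to 230000). Cyp11a1, the enzyme that begins steroid hormone synthesis, stood at 0.0726 and 0.102 CPM in TFH and 306 and 315 CPM in TH2 libraries (-11.77 ± 0.15, edgeR adjusted p 2.94e-11). Nmur1, a neuromedin U receptor through which nerves reach type 2 cells, stood at 19.3 and 22.3 CPM with 0 counts in TFH libraries (at least 159-fold lower). Efna5, an ephrin, Emilin2, a matrix glycoprotein, Krt80, a keratin, and P4ha2, a collagen prolyl hydroxylase, stood at 29.1 and 27.8, 18.9 and 21.0, 16.3 and 23.4 and 18.9 and 18.4 CPM in TH2 libraries, all with 0 counts in TFH libraries, so at least 218-, 153-, 152- and 143-fold lower. Naive libraries held under 1 CPM of each of these genes except P4ha2, at 5.61 and 5.46 CPM.

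The same cell types were also measured by QuantSeq, a 3' end assay, in separate libraries of TFH CXCR5hi cells of OTII mice (n = 3) and TH2 cells of IL-4BacTg x OTII mice (n = 4). The genotype label of the TH2 cells and the kit differ from the RNA-seq comparison, and donor sex may differ. The values therefore stand side by side, and the difference between assays was not tested. Among genes with a mean of at least 20 CPM in a QuantSeq group, 792 were higher in RNA-seq TFH cells at 2-fold or more, and 686 of these (86.6%) had the higher QuantSeq mean in TFH libraries. In 356 (44.9%) all 3 TFH libraries lay above all 4 TH2 libraries, against 12.5% of all 6326 genes measured, and in 8 below. Of 615 genes lower in RNA-seq TFH cells, 484 (78.7%) had the lower QuantSeq mean, 162 (26.3%) had TFH libraries all below, against 9.11% of all genes, and 13 all above.

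By gene, Tox2 stood at 869, 734 and 1129 CPM in QuantSeq TFH libraries and 0, 0, 0.663 and 0 CPM in TH2 libraries, and Sostdc1 at 140.1, 81.5 and 53.8 against 0, 0.337, 0.332 and 0 CPM. Gzma stood at 0, 0 and 1.49 against 885, 672, 79.2 and 108 CPM and Ccr2 at 0, 0 and 0.248 against 293, 333, 295 and 134 CPM. These 4 were apart in the RNA-seq direction. Mki67 was not, at 34.9, 17.0 and 37.4 against 92.8, 117, 0 and 10.3 CPM with overlapping libraries. The QuantSeq TH2 libraries were not alike in Mki67. Those at 92.8 and 117 CPM lay above all TFH libraries, as in RNA-seq, and those at 0 and 10.3 CPM lay below them. A TH2 mean or an overlap therefore joins unlike libraries, and the source of their difference was not tested. Of the 9 mitosis and replication genes with levels given above, all overlapped in QuantSeq. By the mean of log2(CPM + 1), 5 were higher in TFH libraries, opposite to RNA-seq. The sign can depend on the scale, since the plain mean CPM of Mki67 was lower in TFH libraries. The difference of mean log2(CPM + 1), TFH minus TH2, was 0.63 for Mki67, 1.28 for Ccnb2, 0.43 for Nusap1, 0.73 for Tk1 and 1.33 for Cdc6. It was -1.09 for Tpx2, -1.19 for Bub1, -0.95 for Mcm10 and -1.55 for Rrm2. Gzmb overlapped as well, at 0, 0 and 0 against 32.8, 52.3, 0 and 0 CPM, as did Il13 at 16.1, 0 and 0 against 2.34, 0, 0 and 3.24 CPM. The TH2 libraries with Gzmb counts were those high in Mki67. S1pr1, not called in RNA-seq, was apart in QuantSeq, at 17.8, 14.6 and 27.5 against 227, 280.0, 178 and 262 CPM, lower in TFH libraries. Of 131 genes placed side by side, QuantSeq libraries were apart upward in 35, apart downward in 27 and overlapping in 69.

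**Figure D5:**
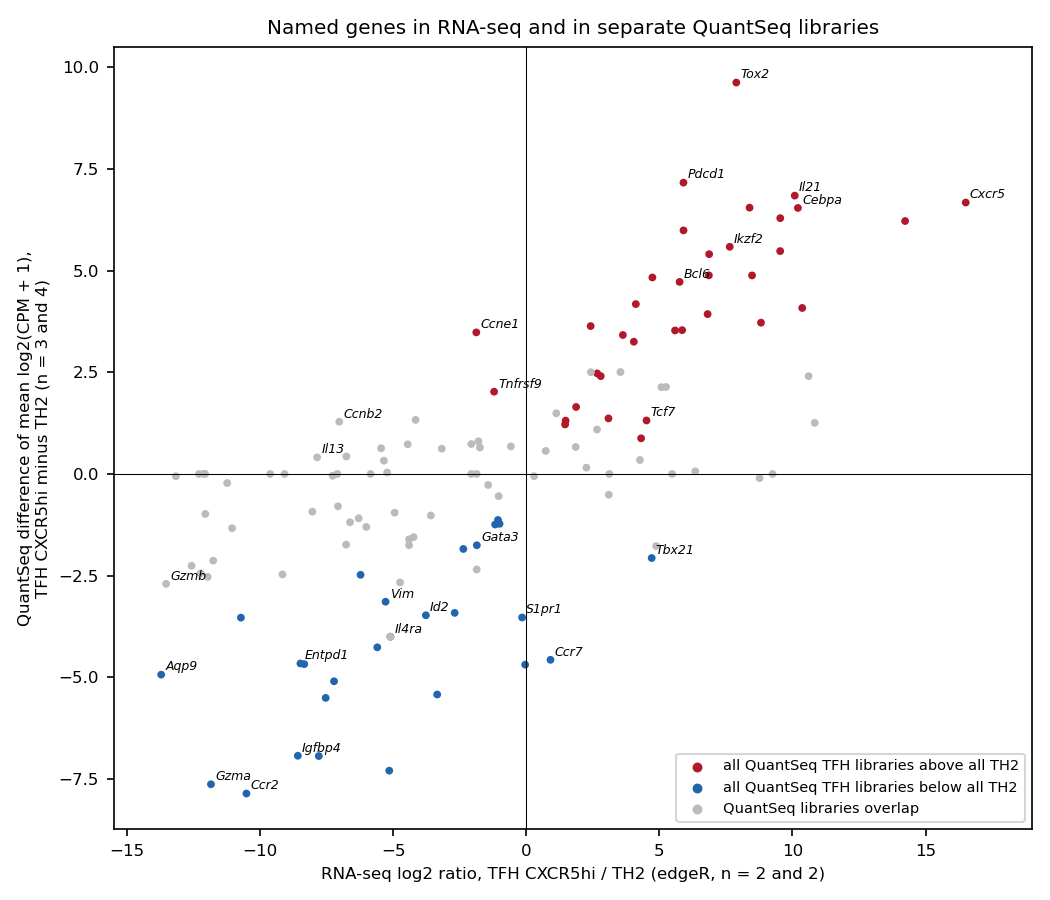
RNA-seq log2 ratio (TFH CXCR5hi over TH2, n = 2 and 2) against the difference of mean log2(CPM + 1) in separate QuantSeq libraries (n = 3 and 4), 1 point per named gene. Red and blue mark genes whose QuantSeq libraries do not overlap. Most lie in the lower left and upper right, while Tbx21 and Ccr7 lie right and low and Tnfrsf9 and Ccne1 left and high.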

How the data were processed

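RNA-seq was measured in 8 libraries, of which the 2 TFH CXCR5hi, 2 TH2 and 2 naive libraries entered the fit. Groups came from the genotype and sort gate in the labels, which name no animal, replicate number or batch. The RNA-seq values deposited by the authors are whole counts per transcript, and the QuantSeq values whole counts per gene. Per the submitters' processing notes the tools were featureCounts 1.6.0, STAR 2.7.0c and Bowtie 0.12.2, with builds mm9, mm10 and GRCm38.p6. Their roles are not given in the sources used here. Of 95883 transcript identifiers, 82946 had a name in GENCODE M21 (GRCm38). The others held 14.59 to 15.09% of counts per library and were left out. For each of the 34030 genes, the transcript with the largest total stood for the gene. Sums over transcripts were 2.525 times these counts, so a read may have been counted on several transcripts.

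The test was that of edgeR 4.0.16 under R 4.3.3, with TMM factors, its quasi-likelihood fit with robust moderation, a 2-sided test, the filterByExpr filter at a total of 15 and a count of 10, and p-values adjusted by the Benjamini-Hochberg method over 15797 genes. The fit had 3 residual degrees of freedom and a biological coefficient of variation of 0.0878. In simulated data of this comparison with 15797 genes, 42, 64, 88 and 96% of changes of 1.5, 2, 4 and 8-fold were called, and 0.0921% of unchanged genes. Only 50 genes were changed per fold there, whereas 65.5% of genes were called in the data. The adjusted threshold was therefore stricter in the simulation, and these shares may not hold for the data. The chi-square per degree of freedom between replicates was 2.73 for TFH, 28 for TH2 and 6.31 for naive libraries, so no pair agreed within sampling noise. Alternatives were DESeq2 1.42.0, no filter, all 8 libraries, only the 4 TFH and TH2 libraries, sums over transcripts, chromosomes X and Y left out, and each TFH or TH2 library left out.

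The compared groups and 33 gene lists were chosen with earlier results of these data known. Genes were named by rule: from each list the 4 largest absolute log2 ratios among calls of 2-fold or more with at least 1 CPM in both libraries of the higher group, 29 lineage genes whatever their values, and over all genes the 12 highest and 12 lowest of at least 10 CPM. Receptor segments, predicted genes and markers of other cells or sex were kept out of the last step. Any other gene named was chosen after its values were seen. Some genes the rule names are not reported here. Promoter windows are from RefSeq (GRCm38.p6). Motif letters were searched on both strands, and a gene with several windows counts once.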

Additional observations from a re-analysis of the deposited data

Results flagged for a closer look

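Tbx21 was higher in RNA-seq TFH cells (log2 ratio 4.71), while all 3 QuantSeq TFH libraries (12.6, 14.9 and 0 CPM) lay below all 4 QuantSeq TH2 libraries (28.9, 20.2, 15.9 and 36.8 CPM). Ccr7 was higher in RNA-seq TFH cells by 0.91 on the log2 scale and stood at 4.10, 16.6 and 5.95 CPM in QuantSeq TFH against 218, 157, 246 and 198 CPM in QuantSeq TH2 libraries. Tnfrsf9, the costimulator 4-1BB, had a log2 ratio of -1.21 in RNA-seq (27.9 and 26.7 CPM in TFH and 65.5 and 61.1 CPM in TH2 libraries), with 14.7, 38.4 and 15.6 against 5.46, 4.72, 4.97 and 2.7 CPM in QuantSeq. Ccne1, the cyclin of S phase entry, had a log2 ratio of -1.88 (7.51 and 6.60 against 25.5 and 26.6 CPM), with 28.4, 35.7 and 21.1 against 1.56, 16.2, 0 and 0 CPM in QuantSeq. In these 4 genes every QuantSeq library lay on the other side from RNA-seq. The difference between the assays was not tested, and the TH2 cells of the assays differ in genotype by their labels.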

How the results depend on the processing

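Over 10 alternatives, 8830 to 10862 genes were called, 2073 to 2427 higher and 2431 to 2952 lower at 2-fold or more, all within 1.5 times the reported counts. The rule names most genes for a large, called ratio. Of the 1286 values of these 129 genes under the alternatives, 1278 kept direction and side of the threshold, 6 lost a call, 2 gained one and 0 reversed. Lost calls were those of Il4 (sums over transcripts), Ifng and Klf2, and gained ones those of S1pr1. The cause was not tested. Of 660 list counts under the alternatives, 641 were within 1.5 times, and the other 19 are counts of at most 7 genes. The mitosis list kept 25 lower, the interferon list 19 higher and the TFH list 23 to 25 higher genes under all 10. No paired analysis was possible because the labels give no replicate numbers shared between groups. With 2 libraries a group, uncalled genes may differ. A ratio of 2 was recovered in 64% of simulated cases, but with far fewer changed genes than in the data, so this share may not hold here. Leaving out a library leaves an arm of 1, assumed to vary like the other groups.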
